A study of Mus musculus with 9 samples.

Results

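The genes that write, erase and protect DNA methylation were followed in ovaries of juvenile mice. These were 10 genes, chosen by symbol from the 52025 genes in the tables, namely the DNA methyltransferase family (Dnmt1, Dnmt3a, Dnmt3b and Dnmt3l), the TET dioxygenases (Tet1, Tet2 and Tet3), and Kdm1b, Zfp57 and Setdb1. All 10 were found in each of the 9 libraries, and all 10 were among the 15495 genes tested, which had a mean above 1 FPKM (fragments mapped to a gene, scaled by its exon length and by the mapped fragments of the library) on at least 1 day. RNA was sequenced from ovaries of Kunming mice, an outbred stock, at postnatal day 14 (PD14), 15 (PD15) and 16 (PD16), with 3 libraries for each day. The labels name no allele and no treatment, age is the label that differs between the groups, and the study describes the 3 libraries of a day as independent ovaries. The labels also give granulosa cells as the source of the RNA, whereas the study's text describes ovaries. These days were chosen in the study because the first follicles of the juvenile ovary form a fluid-filled antrum in this window, and the comparison here asked whether the methylation machinery differed among the days.

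DNA methylation is best known from cytosines that precede guanines, and it is not confined to them. Dnmt3a places it de novo in the growing oocyte together with the catalytically inactive cofactor Dnmt3l, and Dnmt1 copies it to the new strand when dividing cells replicate their DNA. TET enzymes oxidise the mark, which leads to its loss. Kdm1b removes an activating histone methyl mark so that de novo methylation can be set at imprinted regions in oocytes, Zfp57 binds methylated imprinted regions and shields them from demethylation, and Setdb1 places a repressive histone methyl mark at the sites that Zfp57 and its partner Trim28 bind.

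The libraries held about 20369000 to 28731000 mapped fragments, as derived from the steps between low FPKM values and exon lengths, so that even Dnmt3l, the member with the fewest fragments, rested on 245 to 409 fragments per library. The counting error alone was 6.39% for Dnmt3l in its smallest library and 0.941% for Dnmt1. Markers of 8 cell classes and states were measured beside the members. All 22 oocyte markers had a mean above 1 FPKM on every day, with Zp3, a protein of the egg coat, at 349 FPKM on PD14, 401 on PD15 and 276 on PD16. The 14 granulosa cell markers were all above 1 FPKM as well. RNA of both cell classes was thus present. In RNA from whole tissue, FPKM is a share of the library. Fewer cells of a type, less RNA per cell and more RNA from other cells thus cannot be told apart. This applies to every difference given below.

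The bases before the transcription start are shown for the 4 members whose libraries did not overlap between some of the days. They are shown because CG is a site that this machinery methylates. Sequences are from RefSeq, build GRCm38.p6, on the strand of the gene and 5′ to 3′, and capitals mark each CG, which reads the same on both strands. Stretches annotated as untranslated exon were left out, which shortened the run of Kdm1b to 155 bases. The window before the innermost start of Dnmt1 is not shown because it overlaps the untranslated and coding parts of an exon of another Dnmt1 transcript. The middle Dnmt1 run lies at chr9:20952980-20953229, the outer run at chr9:20959889-20960138, the Kdm1b run at chr13:47043344-47043498, the Zfp57 run at chr17:37000913-37001162 and the Setdb1 run at chr3:95357203-95357452. Dnmt1 and Setdb1 lie on the minus strand, and the Setdb1 run lies within an exon that GENCODE M21 gives to Gm37500 on the other strand.
Dnmt1, middle start: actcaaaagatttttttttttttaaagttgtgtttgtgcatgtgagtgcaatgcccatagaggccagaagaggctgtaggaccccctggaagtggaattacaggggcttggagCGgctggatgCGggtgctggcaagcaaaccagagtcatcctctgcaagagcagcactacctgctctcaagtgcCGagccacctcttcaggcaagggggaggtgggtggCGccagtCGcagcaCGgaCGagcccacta
Dnmt1, outer start: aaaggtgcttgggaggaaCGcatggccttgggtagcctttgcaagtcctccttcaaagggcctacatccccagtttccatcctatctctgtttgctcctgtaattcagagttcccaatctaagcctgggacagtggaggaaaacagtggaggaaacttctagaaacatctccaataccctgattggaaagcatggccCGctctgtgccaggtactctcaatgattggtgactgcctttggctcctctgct
Kdm1b: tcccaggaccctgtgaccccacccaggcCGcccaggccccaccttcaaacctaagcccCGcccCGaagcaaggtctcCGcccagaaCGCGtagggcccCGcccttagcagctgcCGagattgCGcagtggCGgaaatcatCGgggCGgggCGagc
Zfp57: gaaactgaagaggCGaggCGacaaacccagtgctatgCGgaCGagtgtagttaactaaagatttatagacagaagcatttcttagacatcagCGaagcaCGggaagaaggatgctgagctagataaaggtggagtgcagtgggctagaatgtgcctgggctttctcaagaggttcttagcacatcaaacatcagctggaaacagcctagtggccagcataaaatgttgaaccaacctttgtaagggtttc
Setdb1: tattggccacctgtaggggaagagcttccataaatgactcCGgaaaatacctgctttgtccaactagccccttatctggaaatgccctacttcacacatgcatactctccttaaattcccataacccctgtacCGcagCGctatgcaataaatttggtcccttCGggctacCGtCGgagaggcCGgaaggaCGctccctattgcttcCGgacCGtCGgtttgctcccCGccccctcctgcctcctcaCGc

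The printed runs of 250 bases held 7 and 2 CG for Dnmt1, 6 for Zfp57 and 13 for Setdb1. The run of Kdm1b held 13 CG in 155 bases, and its full window of 250 bases held 22. In the windows of 250 bases not printed here, the innermost start of Dnmt1 had 26 CG and 2 further starts inside Zfp57 had 7 and 3. Over the 18 windows of 250 bases that RefSeq gives for the 10 genes, the number of CG ran from 2 at the outer start of Dnmt1 to 51 at Tet2. A window with at least 10 CG was found for 8 of the 10 members, the exceptions being Zfp57 and Dnmt3l. Among all 32851 windows of that length the median was 6 CG, and 37.8% held 10 or more. Methylation itself was not measured, and the tables give genes without separating their transcripts, so the use of each start was not tested.

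By FPKM, Dnmt1, Zfp57 and Kdm1b were the most abundant members, and Tet1 and Tet2 the least. FPKM is scaled by length, so this order depends on the exon length given to each gene. The merged exons of GENCODE M21 span 16642 bases for Dnmt3a and 3786 for Zfp57. In PD14 replicate 1, Dnmt3a had 5873 fragments and Zfp57 had 4856. Transcripts were not separated, so whether the full length of each gene was transcribed was not tested. On all 3 days the order of mean FPKM was Dnmt1, Zfp57, Kdm1b, Setdb1, Dnmt3a, Tet3, Dnmt3l, Dnmt3b, Tet1 and Tet2. Averaged over the 9 libraries, Dnmt1 stood at 77.7 FPKM and above 96.3% of the genes tested, Zfp57 at 51.1 FPKM and above 93.6%, and Kdm1b at 32.4 FPKM and above 88.7%. Tet2, at 2.14 FPKM, stood above 20.4% of them. Neighbours in this order had libraries that overlapped only at the low end. On PD14 the overlapping neighbours were Dnmt3l with Dnmt3b, Dnmt3b with Tet1, and Tet1 with Tet2. On PD15 only Dnmt3b and Tet1 overlapped, and on PD16 no neighbours did.

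**Figure D1:**
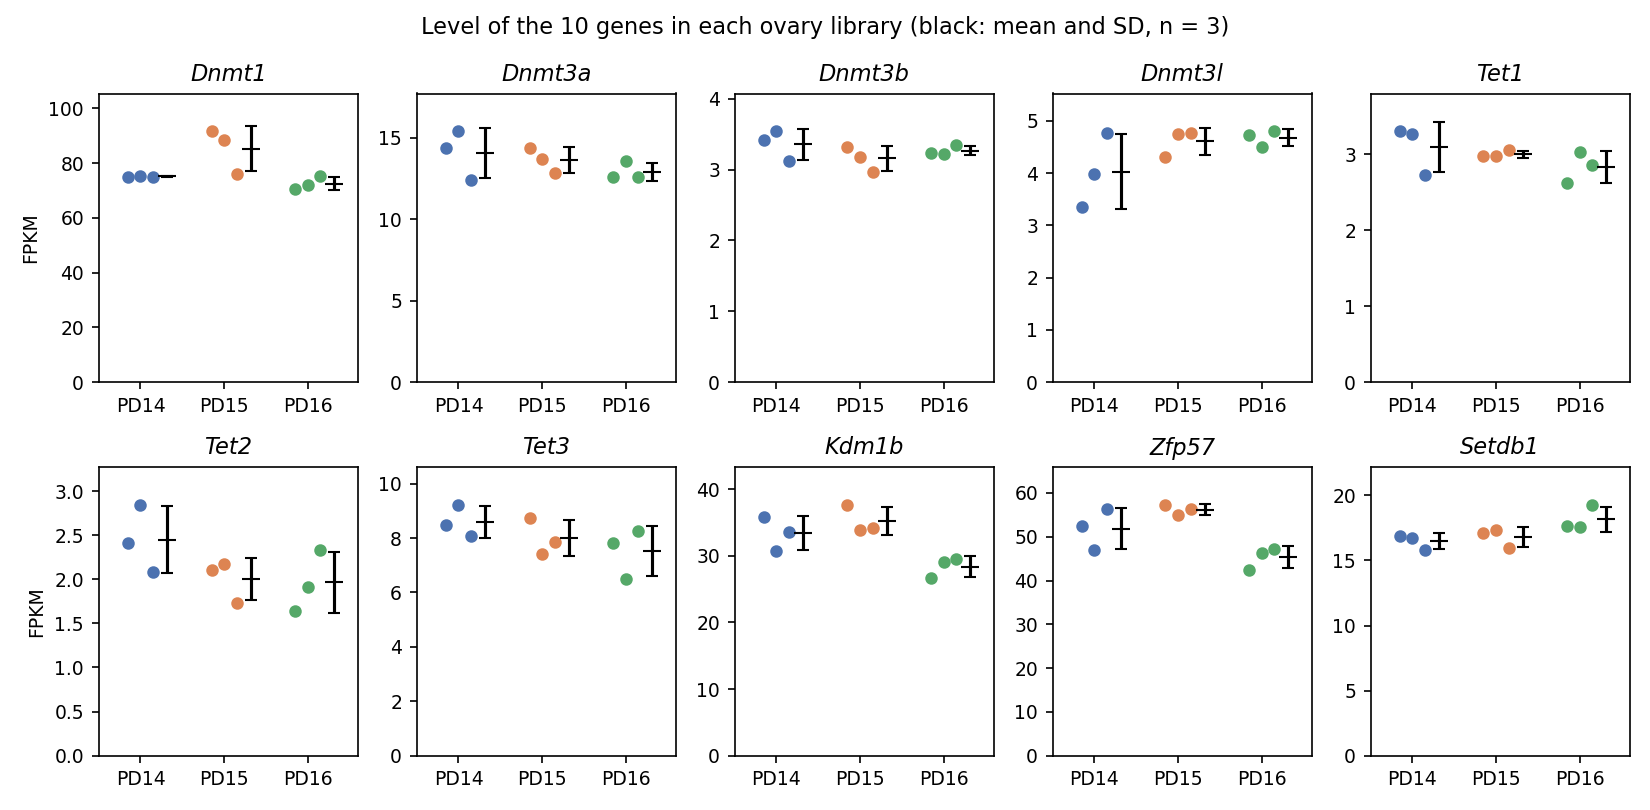
FPKM (vertical axes, each from 0) of the 10 genes in each library, by postnatal day (coloured points, 3 per day), with the mean and SD in black. Kdm1b and Zfp57 were lowest on PD16 and Dnmt1 was highest on PD15, where 1 of its 3 libraries lay at 76.0 FPKM.

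No member passed the test in any comparison of days. The tests were made with limma on log2(FPKM + 1) across all 15495 genes, and a gene was called at a Benjamini-Hochberg adjusted p under 0.05. Between PD14 and PD15, 0 of 10 members were called, against 0.678% of all genes tested, and 1 member had an unadjusted p under 0.05. Between PD14 and PD16, 0 of 10 were called, against 4.25% of all genes, and 3 had an unadjusted p under 0.05. Between PD15 and PD16, 0 of 10 were called, against 0.729%, and 3 had an unadjusted p under 0.05. In limma's F test among the 3 days, 0 of 10 were called, against 3.03%, and 3 had an unadjusted p under 0.05. Of all genes tested, the share with an unadjusted p under 0.05 was 14.7%, 22.8%, 14.1% and 22.3% in these tests, and nothing particular to the members is read from their counts.

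On the log2(FPKM + 1) scale the difference largest in size was -0.30, for Kdm1b and Zfp57 on PD16 against PD15. This order depends on the pseudocount, since with 0.01 in place of 1 Tet2 stood at -0.32 for PD16 against PD14, where its mean FPKM differed by -19.8%, against -19.5% for Kdm1b and -19.2% for Zfp57 between PD16 and PD15. The median log2 difference of the 10 members was -0.0027 for PD15 against PD14, where all genes had a median of 0.0065. It was -0.10 for PD16 against PD14, with 8 of 10 members lower, and -0.068 for PD16 against PD15, with 7 of 10 lower, where the medians of all genes were 0.0093 and 0.0091. The libraries of PD15 lay entirely above those of PD14 for 1 member, Dnmt1, where 10.4% of all genes did so, and entirely below for 0 members, where 10.2% did. For PD16 against PD14, Setdb1 lay entirely above (15% of all genes) and Kdm1b entirely below (13.5%). For PD16 against PD15, Setdb1 lay entirely above (9.85% of all genes), and Dnmt1, Kdm1b and Zfp57 lay entirely below (9.73%). With 3 libraries against 3, an exact permutation test cannot give a p below 0.1, and 7 tests of a member reached it, the same 7 cases in which the libraries separated.

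**Figure D2:**
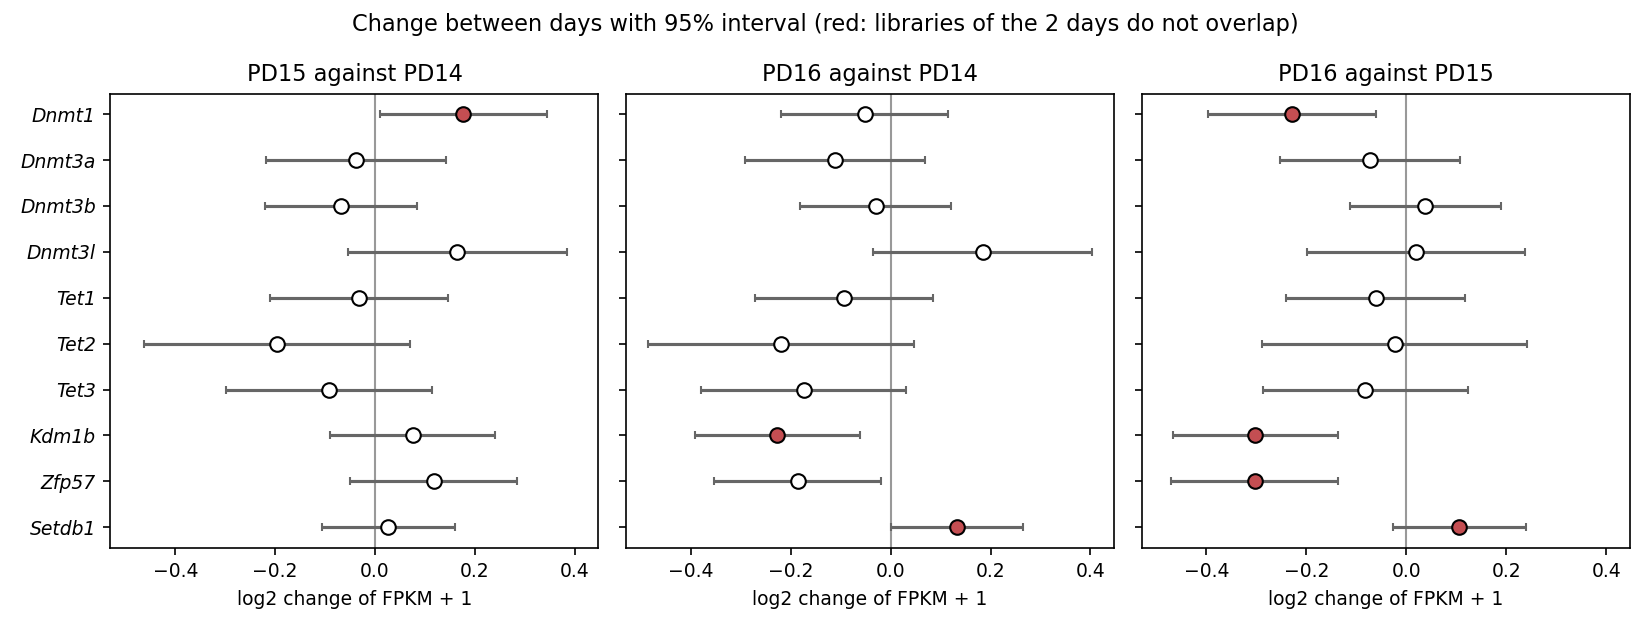
Difference in log2(FPKM + 1) between days (horizontal axes) for the 10 genes, with the 95% interval from limma, in 3 panels of 1 comparison each. Red points are genes whose libraries did not overlap between the 2 days, and Kdm1b and Zfp57 lie at -0.30 each for PD16 against PD15.

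Dnmt1 (ENSMUSG00000004099, chr9:20907209-20959888, minus strand) copies methylation after replication. Its FPKM were 74.9, 75.5 and 75.1 on PD14, 91.7, 88.4 and 76.0 on PD15, and 70.4, 71.9 and 75.2 on PD16. Of the PD15 libraries, replicates 1 and 2 were high, whereas replicate 3 lay only just above the PD14 libraries. The log2 difference was 0.18 for PD15 against PD14 (95% interval 0.0094 to 0.34, limma adjusted p = 0.312) and -0.23 for PD16 against PD15 (interval -0.40 to -0.061, adjusted p = 0.196). PD16 and PD14 overlapped, with a difference of -0.052 (interval -0.22 to 0.12, adjusted p = 0.723) that was -0.032 without PD16 replicate 1 and -0.078 without PD16 replicate 3. Without PD15 replicate 3, the difference for PD15 against PD14 was 0.26 (adjusted p = 0.118), and over the alternatives of this comparison the adjusted p ran from 0.118 to 0.593.

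Dnmt3a (ENSMUSG00000020661, chr12:3806007-3914443, plus strand), the principal de novo methyltransferase of the oocyte, was at 14.4, 15.4 and 12.4 FPKM on PD14, 14.4, 13.7 and 12.8 on PD15, and 12.6, 13.6 and 12.6 on PD16. The means were thus 14.1 ± 1.54, 13.6 ± 0.781 and 12.9 ± 0.561 FPKM (SD, n = 3), and the libraries of the 3 days overlapped. The log2 difference for PD16 against PD14 was -0.11 (interval -0.29 to 0.069, limma adjusted p = 0.447), and it was -0.047 without PD14 replicate 2 and -0.19 without PD14 replicate 3.

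Dnmt3b (ENSMUSG00000027478, chr2:153649450-153687730, plus strand), the de novo enzyme best known from the early embryo, stood at 3.36 ± 0.220, 3.16 ± 0.181 and 3.27 ± 0.0650 FPKM (SD, n = 3) on PD14, PD15 and PD16. Its interval for PD16 against PD14 ran from -0.18 to 0.12. Dnmt3l (ENSMUSG00000000730, chr10:78041947-78063622, plus strand) had the widest relative spread of the family on PD14 (coefficient of variation 17.6%), with 3.35, 3.98 and 4.76 FPKM. It measured 4.30, 4.75 and 4.76 FPKM on PD15, and 4.73, 4.50 and 4.80 on PD16. The PD14 libraries thus reached from below every later library up to the later level. The log2 difference of Dnmt3l was 0.18 for PD16 against PD14 (interval -0.034 to 0.40, limma adjusted p = 0.293), and it was 0.084 without PD14 replicate 1 and 0.29 without PD14 replicate 3.

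Within the methyltransferase family, Dnmt1 took 77.8%, 79.9% and 77.6% of the summed FPKM on PD14, PD15 and PD16. Dnmt3a took 14.6%, 12.8% and 13.8%, Dnmt3l 4.17%, 4.34% and 5.01%, and Dnmt3b 3.48%, 2.96% and 3.50%. The sum of the family was 96.6 ± 1.57 FPKM on PD14, 106.8 ± 9.04 on PD15 and 93.3 ± 2.46 on PD16 (SD, n = 3), so the PD15 value carried the spread of Dnmt1.

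The 3 TET genes had negative log2 differences in all 3 comparisons, and none had libraries that separated between days. The sign turned for Tet1 (PD15 against PD14) and for Tet2 and Tet3 (PD16 against PD15) when single libraries were left out. Tet3 (ENSMUSG00000034832, chr6:83362373-83459084, minus strand), the dioxygenase that the oocyte supplies to the zygote, was the most abundant. It measured 8.47, 9.23 and 8.07 FPKM on PD14, 8.72, 7.40 and 7.87 on PD15, and 7.82, 6.49 and 8.25 on PD16. The PD16 range spanned values from below every other library to within those of PD14. Its log2 difference for PD16 against PD14 was -0.17 (interval -0.38 to 0.031, limma adjusted p = 0.290), and -0.085 without PD16 replicate 2.

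Tet2 (ENSMUSG00000040943, chr3:133463679-133545139, minus strand) had 2.41, 2.85 and 2.09 FPKM on PD14, 2.11, 2.17 and 1.73 on PD15, and 1.64, 1.91 and 2.33 on PD16. Its difference for PD16 against PD14 was -0.22 (interval -0.49 to 0.046, limma adjusted p = 0.303), and it was -0.14 without either PD14 replicate 2 or PD16 replicate 1. Tet1 (ENSMUSG00000047146, chr10:62804570-62908996, minus strand) stood at 3.10 ± 0.328, 3.00 ± 0.0447 and 2.84 ± 0.210 FPKM (SD, n = 3), with a difference of -0.094 for PD16 against PD14 (interval -0.27 to 0.084, adjusted p = 0.515) that ran from -0.16 without PD14 replicate 3 to -0.052 without PD16 replicate 1. Summed over the family, the TET genes gave 12.9 to 15.3 FPKM on PD14, 12.6 to 13.8 on PD15 and 11.4 to 13.4 on PD16. The share of each gene in this sum overlapped between the days, with Tet3 at 60.8%, 61.4% and 60.9%, Tet1 at 21.9%, 23.1% and 23.2%, and Tet2 at 17.3%, 15.4% and 15.9%.

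The lowest adjusted p-values among the members were those of Kdm1b and Zfp57. Kdm1b (ENSMUSG00000038080, chr13:47043499-47085279, plus strand), whose printed run upstream of the start holds 13 CG, was at 35.9, 30.8 and 33.7 FPKM on PD14, 37.7, 33.8 and 34.2 on PD15, and 26.6, 29.0 and 29.5 on PD16. All 3 PD16 libraries lay below all libraries of PD14 and PD15. The mean was 28.4 ± 1.54 FPKM on PD16 against 35.3 ± 2.12 on PD15 and 33.4 ± 2.54 on PD14 (SD, n = 3). The log2 difference was -0.30 for PD16 against PD15 (SE 0.073, interval -0.47 to -0.14, limma adjusted p = 0.101) and -0.23 for PD16 against PD14 (SE 0.073, interval -0.39 to -0.062, adjusted p = 0.107). In the F test among days its adjusted p was 0.0884.

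Zfp57 (ENSMUSG00000036036, chr17:37001163-37010635, plus strand) had 52.3, 46.9 and 56.3 FPKM on PD14, 57.3, 54.9 and 56.3 on PD15, and 42.5, 46.4 and 47.2 on PD16. The PD16 libraries lay below all PD15 libraries, while PD14 replicate 2, at 46.9 FPKM, lay within the PD16 range. The log2 difference was -0.30 for PD16 against PD15 (SE 0.074, interval -0.47 to -0.14, limma adjusted p = 0.104) and -0.19 for PD16 against PD14 (SE 0.074, interval -0.35 to -0.019, adjusted p = 0.177). The F test gave an adjusted p of 0.0980. Without PD14 replicate 2 the difference of Zfp57 for PD16 against PD14 was -0.26 (adjusted p = 0.0898), where the alternatives of this comparison gave adjusted p-values of 0.0898 to 0.419.

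Setdb1 (ENSMUSG00000015697, chr3:95323525-95357202, minus strand) went the other way. It measured 16.9, 16.7 and 15.8 FPKM on PD14, 17.1, 17.3 and 16.0 on PD15, and 17.7, 17.6 and 19.3 on PD16, with all PD16 libraries above all libraries of PD14 and PD15. The highest value came from PD16 replicate 3, and the other two PD16 libraries lay just above the highest PD15 library. The log2 difference was 0.13 for PD16 against PD14 (SE 0.059, interval 0.00092 to 0.27, limma adjusted p = 0.217) and 0.11 for PD16 against PD15 (SE 0.059, interval -0.026 to 0.24, adjusted p = 0.455), the latter being 0.065 without PD16 replicate 3.

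The summed level of the 22 oocyte markers, like the mean FPKM of Dnmt1, Kdm1b and Zfp57, was highest on PD15 and lowest on PD16. Among the 14 granulosa cell markers, Foxl2 (means of 142.1, 171.8 and 139.0 FPKM on the 3 days), Gata4 (82.6, 87.6 and 67.9) and Inhbb (195, 197 and 176) had the same order of days. The other granulosa cell markers did not. For PD15 against PD14, 5 of the 14 were positive and 9 negative, with a median of -0.11. Their mean sum was lowest on PD15, at 3743, 3424 and 3589 FPKM on the 3 days. The oocyte marker sum was 2376, 1983 and 2460 FPKM on PD14, 2667, 2532 and 2740 on PD15, and 1877, 1919 and 2011 on PD16. For PD16 against PD15, 22 of 22 markers had a negative log2 difference with a median of -0.32, where 53.1% of all genes had a positive one. Of these markers, 17 had libraries that lay entirely lower, as had 9.73% of all genes. By limma 2 were called, against 0.729% of all genes, namely Zp2 (-0.61, adjusted p = 0.0427) and Nlrp5 (-0.72, adjusted p = 0.0439). Zp3, at -0.54 in this comparison, was not called (adjusted p = 0.0526), but it was called in 5 alternatives, among them without PD14 replicate 2 (0.0437), and its adjusted p over the alternatives ran from 0.0320 to 0.166. For PD15 against PD14, 19 of 22 were positive with a median of 0.22, and for PD16 against PD14, 17 were negative with a median of -0.17. Of all genes, 51.9% and 52.2% were positive in these 2 comparisons. Nlrp5 was called higher for PD15 against PD14 (0.76, limma adjusted p = 0.0377) and Bmp15 for PD16 against PD14 (0.39, adjusted p = 0.0331), against the direction of most of the list, with a difference of -0.0041 for PD16 against PD15. None of the 22 was at 0 on any day. PD14 replicate 2 had the lowest marker sum of its day and also the lowest Zfp57 and Kdm1b of its day. Dnmt1 did not follow the sum in this way. It was highest of its day in PD14 replicate 2 (75.5 FPKM). In PD15 replicate 3, which had the highest marker sum, Dnmt1 was lowest of its day (76.0 FPKM).

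Set against this marker sum, Zfp57 was equivalent to 2.28 ± 0.0807% on PD14, 2.12 ± 0.0620% on PD15 and 2.34 ± 0.0762% on PD16 (SD, n = 3), a description chosen after the values were seen. Kdm1b was equivalent to 1.48 ± 0.0962%, 1.33 ± 0.0818% and 1.47 ± 0.0470%. Setdb1 was equivalent to 0.732 ± 0.103%, 0.636 ± 0.0515% and 0.939 ± 0.0225%, and Dnmt3l to 0.178 ± 0.0327%, 0.174 ± 0.0133% and 0.242 ± 0.00934%. Dnmt1 ran from 3.05% to 3.80% on PD14, from 2.77% to 3.49% on PD15 and from 3.74% to 3.75% on PD16, and its PD16 libraries lay within the PD14 range. Since the marker sum was lowest on PD16, a gene with a level that does not follow it comes out higher on that day by construction, and no difference between days is read from this scale. The part of oocyte content in the differences of these members was not tested.

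**Figure D3:**
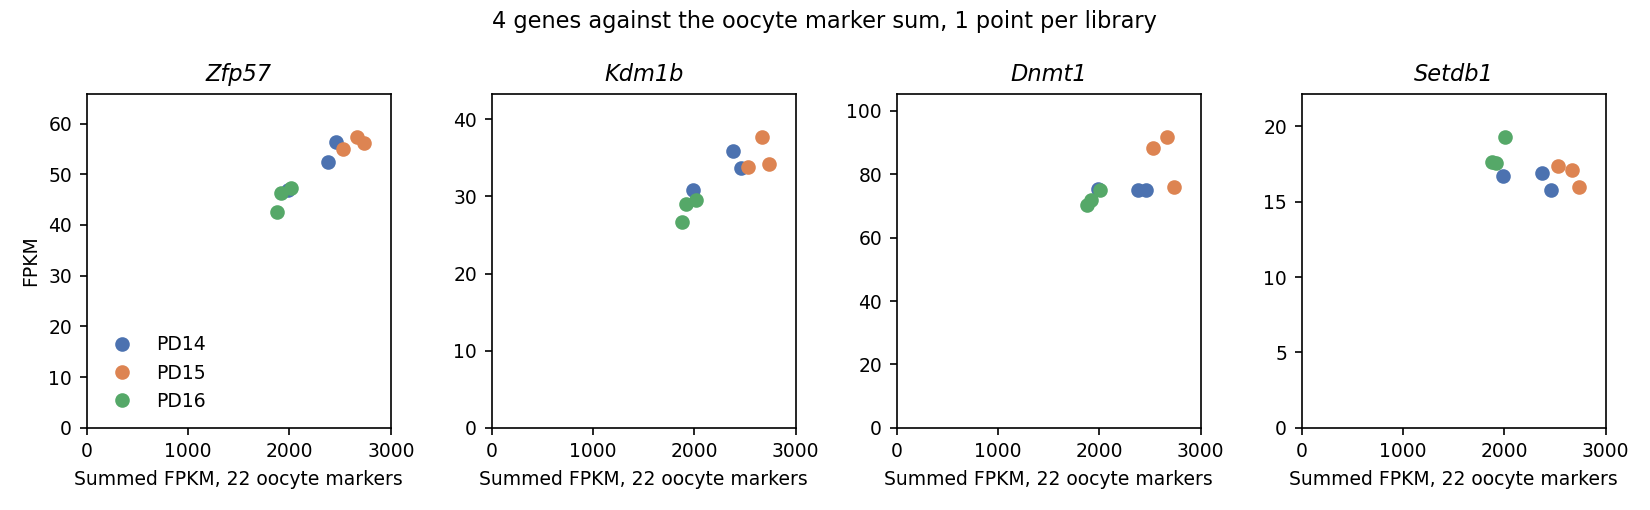
FPKM of Zfp57, Kdm1b, Dnmt1 and Setdb1 (vertical axes, from 0) against the summed FPKM of 22 oocyte markers (horizontal axes, from 0), 1 point per library and coloured by day. The PD16 libraries sit at marker sums of 1877 to 2011 FPKM, and PD14 replicate 2, at 1983, lies among them for Zfp57.

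The granulosa cell markers summed to 3385 to 4119 FPKM on PD14, 3209 to 3589 on PD15 and 3310 to 3919 on PD16. The 14 markers of S phase and mitosis were all positive for PD15 against PD14, with a median of 0.16, and all positive for PD16 against PD14, with a median of 0.23, and 0 of 14 were called by limma in either, with 3 and 6 at an unadjusted p under 0.05. Their sum was 401 to 421 FPKM on PD14, 476 to 492 on PD15, and 541, 556 and 412 on PD16, so that PD16 replicate 3 lay at the PD14 level. Of the granulosa cell markers, limma called Amh higher (0.47, adjusted p = 0.0223) and Cyp19a1 (-0.84, adjusted p = 0.0316) and Kitl (-0.50, adjusted p = 0.0494) lower for PD16 against PD14. Of the 14 granulosa cell markers, 5 were positive and 9 negative for PD16 against PD14, with a median of -0.071, and 7 were positive and 7 negative for PD16 against PD15, with a median of 0.0075 and values from -0.39 for Kitl and -0.36 for Gata4 to 0.41 for Fst and 0.44 for Fshr. Inha made up more of their sum than any other of the 14, at means of 2296, 2008 and 2152 FPKM. Theca and interstitial markers summed to 1816 to 2446, 1330 to 1955 and 1334 to 1807 FPKM on the 3 days, and these, stroma and endothelium had 0 genes called by limma in any comparison, with 0 to 3 genes of a list at an unadjusted p under 0.05. Markers of epithelium and oviduct summed to 68.2 to 77.5, 64.1 to 68.2 and 51.1 to 56.9 FPKM. Of the 7 markers in this list 5 were tested. For PD16 against PD14 limma called 4 of them lower (Krt8, Krt18, Krt19 and Lgals7), where 4.25% of all genes were called. Upk3b was positive (0.049) and not called, and the median was -0.45. Markers of blood and macrophage summed to 113.7 to 143.7, 60.9 to 79.6 and 78.1 to 126.7 FPKM, where Hba-a1 fell from PD14 to PD15 and Lyz2 rose from PD14 to PD16. For PD16 against PD14, 4 of the 6 blood and macrophage markers tested had a negative difference, and the median was -0.073. The markers named in these lists and in the oocyte list, other than Zp3 and Fshr, were chosen after their values were seen. The part of these classes in the members' differences was not tested.

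Members were also compared by their pattern over the 9 libraries, as Pearson correlation of log2(FPKM + 1), a description over libraries that differ in depth and in marker sums, whose part in the correlations was not tested. Kdm1b and Zfp57 were the most alike pair of members (r = 0.924), and Dnmt3l and Tet1 the most opposed (r = -0.757). Among all genes tested, those most like Kdm1b were Padi6 (r = 0.972), a component of the cytoplasmic lattices of the oocyte, and Astl (r = 0.968), the oocyte protease that cleaves the egg coat. Those most like Zfp57 were a gene model without a symbol (r = 0.983) and Zp3 (r = 0.978). Padi6 and Zp3 are themselves on the oocyte marker list.

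The genes most like Dnmt1 were Fip1l1 (r = 0.966), a factor of mRNA polyadenylation, and Acox3 (r = 0.947), an acyl-CoA oxidase of the peroxisome. Setdb1 was most like Taf4 (r = 0.985), a subunit of the general transcription factor TFIID. For Dnmt3a the closest genes were Fgf18 (r = 0.950) and Exoc6b (r = 0.940), for Dnmt3b Tmed8 (r = 0.949) and Kif1c (r = 0.944), and for Dnmt3l Henmt1 (r = 0.939) and 2310057M21Rik (r = 0.932). Tet1 was most like Mtmr12 (r = 0.945) and Nin (r = 0.922), Tet2 like Zfp316 (r = 0.963) and Baz2a (r = 0.957), and Tet3 like Adgrl2 (r = 0.918) and Lrba (r = 0.909). No oocyte marker was among the closest genes of these 8 members.

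Genes that work with the members were followed in 4 lists of 54 genes in all, every one of which passed the filter. Between PD14 and PD16, 4.25% of all genes were called. Of the partner lists, 3 of the 15 partners of methyltransferases rose and 0 fell, 0 of 15 partners of demethylation and base repair rose and 1 fell, and 0 of 7 methyl-CpG readers and 0 of 17 heterochromatin and imprint partners were called by limma, with 0 and 5 at an unadjusted p under 0.05. None of the 54 was called between PD14 and PD15 or between PD15 and PD16, where 2, 3, 1 and 2 genes of the 4 lists and then 5, 3, 0 and 1 had an unadjusted p under 0.05 in limma. The medians for PD16 against PD14 were 0.064, 0.026, -0.032 and 0.12 in the order of the lists. Of the 17 heterochromatin and imprint partners, 14 had a positive difference, as had 52.2% of all genes tested, and 22.8% of all genes had an unadjusted p under 0.05 in this comparison.

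**Figure D4:**
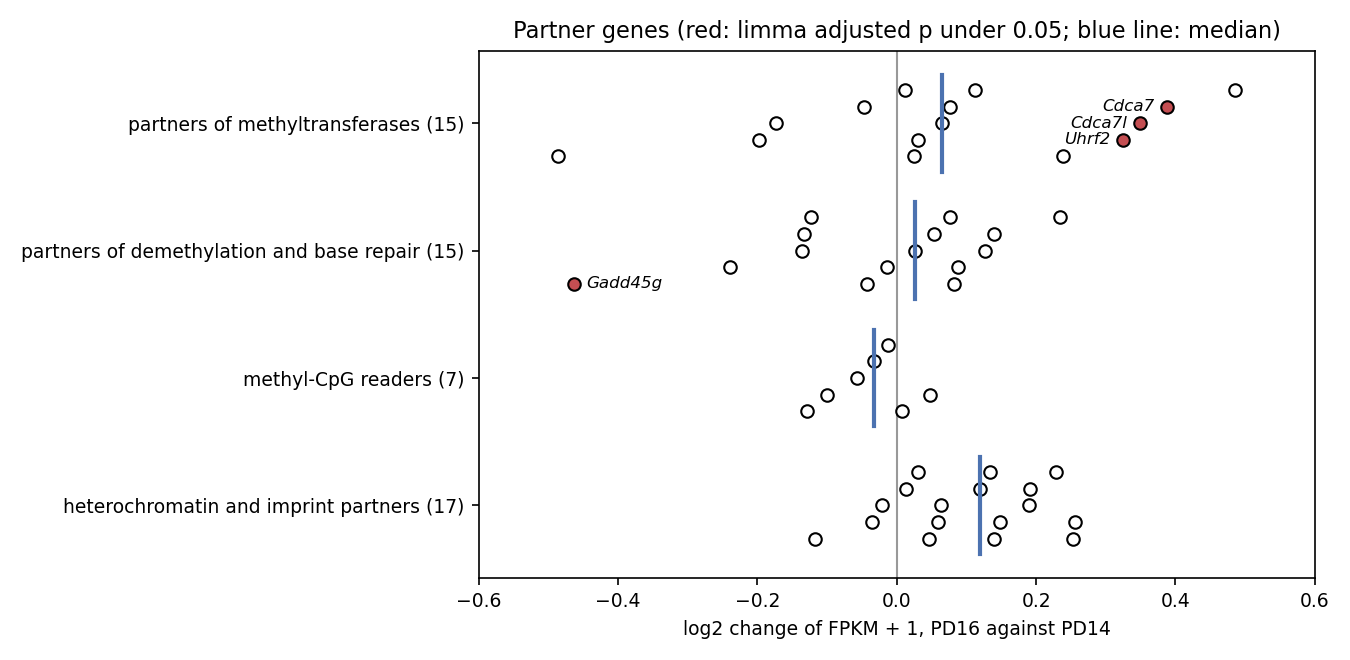
Difference in log2(FPKM + 1) for PD16 against PD14 (horizontal axis) of the 54 partner genes in 4 lists, 1 point per gene, spread vertically for visibility only. Red points are the 4 genes called by limma, Cdca7, Cdca7l and Uhrf2 above 0 and Gadd45g below, and blue lines are the list medians.

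Among the partners of methyltransferases, Uhrf2, a relative of the factor that brings Dnmt1 to replicating DNA, was at 9.70, 10.3 and 9.72 FPKM on PD14, 10.3, 10.5 and 11.4 on PD15, and 12.7, 12.4 and 12.8 on PD16. It rose by 0.32 on the log2 scale from PD14 to PD16 (SE 0.053, limma adjusted p = 0.0177), and its PD16 libraries lay above all others. Cdca7, which recruits the remodeller Hells to chromatin, had 18.02, 20.65 and 19.96 FPKM on PD14, 25.2, 23.5 and 23.0 on PD15, and 27.6, 26.8 and 23.3 on PD16. It rose by 0.39 from PD14 to PD16 (SE 0.078, adjusted p = 0.0294). Its lowest PD16 library was replicate 3, the library with the low sum of S phase markers, and the part of that sum was not tested.

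Cdca7l, a paralogue of Cdca7, measured 12.4, 13.6 and 12.1 FPKM on PD14, 13.7, 13.5 and 14.5 on PD15, and 16.3, 16.5 and 16.3 on PD16, a rise of 0.35 from PD14 to PD16 (SE 0.056, limma adjusted p = 0.0166). Gadd45g, a growth arrest and DNA damage gene that has been linked to demethylation, measured 27.4, 29.9 and 31.2 FPKM on PD14, 22.9, 26.4 and 23.3 on PD15, and 20.3, 21.2 and 21.8 on PD16. It fell by 0.46 on the log2 scale from PD14 to PD16 (SE 0.071, adjusted p = 0.0148). Each of these 4 calls was lost when certain single libraries were left out. Without PD14 replicate 3 or PD16 replicate 1, the limma adjusted p of Gadd45g was 0.0594 and 0.0607. Without PD14 replicate 1, PD14 replicate 3 or PD16 replicate 1, that of Uhrf2 was 0.0619, 0.0700 and 0.0664, that of Cdca7l 0.0590, 0.0659 and 0.0622, and that of Cdca7 0.0925, 0.0934 and 0.102. Without PD16 replicate 2 that of Cdca7 was 0.0836. The fit with replicate number as a block ended the calls of Uhrf2 (0.0513), Cdca7l (0.0505) and Cdca7 (0.0656). Over all alternatives the adjusted p ran from 0.0119 to 0.0700 for Uhrf2, 0.0219 to 0.102 for Cdca7, 0.0110 to 0.0659 for Cdca7l and 0.00952 to 0.0607 for Gadd45g.

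Uhrf1, Dppa3, Trim28, Tdg and Dmap1 were not called in any comparison. Uhrf1, which recruits Dnmt1, was at 67.4, 66.3 and 70.2 FPKM on PD14, 88.2, 82.5 and 70.6 on PD15, and 63.3, 71.5 and 62.9 on PD16. PD15 replicates 1 and 2 were high and replicate 3 was close to PD14, as for Dnmt1. The log2 difference of Uhrf1 was 0.23 for PD15 against PD14 (limma adjusted p = 0.264) and -0.28 for PD16 against PD15 (adjusted p = 0.188).

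Dppa3, an oocyte protein that keeps Uhrf1 from driving excess methylation, had 128.8, 92.8 and 130.6 FPKM on PD14, 125.6, 121.6 and 157.3 on PD15, and 98.6, 100.7 and 103.7 on PD16. PD14 replicate 2, the library of its day with the lowest oocyte marker sum, was the lowest of the 9 libraries. The log2 difference of Dppa3 for PD16 against PD15 was -0.40 (interval -0.72 to -0.089, limma adjusted p = 0.227), with separated libraries. Trim28, the scaffold that joins Zfp57 to Setdb1, stood at 109.1 ± 1.19, 119 ± 8.48 and 121 ± 6.86 FPKM on PD14, PD15 and PD16 (SD, n = 3), a difference of 0.15 for PD16 against PD14 (adjusted p = 0.254).

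Tdg, the glycosylase that excises oxidised methylcytosine, stood at 2.53 ± 0.138, 2.82 ± 0.222 and 2.73 ± 0.241 FPKM (SD, n = 3), and its libraries overlapped between all days. Dmap1, which associates with Dnmt1, had 17.9, 17.7 and 20.7 FPKM on PD14, 17.6, 18.8 and 19.1 on PD15, and 15.7, 16.9 and 16.9 on PD16. The PD16 libraries of Dmap1 lay below all others, with a log2 difference of -0.17 for PD16 against PD14 (limma adjusted p = 0.183) that was -0.10 without PD14 replicate 3.

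Some members share exonic bases with a gene on the other strand, and the sources used here do not say whether counting used the strand. Kdm1b shares 505 bases (9.19% of its exons) with Dek, a chromatin protein gene that was more abundant, at 60.8 ± 3.01, 65.8 ± 1.14 and 69.6 ± 7.89 FPKM on PD14, PD15 and PD16 (SD, n = 3). Dek had its highest mean on the day on which Kdm1b had its lowest, with a log2 difference of 0.19 for PD16 against PD14 (limma adjusted p = 0.220), and its part in the Kdm1b values was not tested. Setdb1 shares 75 bases (1.09%) with Cers2 and 249 bases (3.63%) with Gm37500, Dnmt3l 67 bases (2.24%) with Aire, Dnmt3a 133 bases (0.799%) with Dnmt3aos, and Tet2 43 bases (0.255%) with Gm42567. Reads from such stretches cannot be told apart without the strand.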

How the data were processed

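RNA of juvenile ovaries was sequenced in 3 libraries at each of PD14, PD15 and PD16 (NEBNext Ultra kit, 1 µg of RNA). The authors deposited FPKM per gene in 1 table per library. Per the submitters' processing notes, HISAT2 2.0.5 and the mm10 build were used, and the counting tool, annotation release and strand setting are not given in the sources used here. FPKM depends on library size and gene length and does not correct for RNA composition.

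Differences between days were tested on log2(FPKM + 1), which understates changes of low genes, with limma 3.58.1 (R 4.3.3, intensity trend, two-sided), in a fit of all 9 libraries without a block. A gene entered when its daily mean exceeded 1 FPKM on any day, and the Benjamini-Hochberg adjustment covered all 15495 of them. Single members were also tested by a two-sided exact permutation test (SciPy 1.17.1). The fit was tested on simulated data with 200 changed genes among 15495, of which it recovered 0% at a log2 change of 0.25 for PD16 against PD14, 57.5% at 0.50 and 90.5% at 1. In the data 659 genes were called in this comparison, and the adjustment depends on how many genes change. These shares are thus not the recovery in the data.

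Mapped fragments per library (about 20369000 to 28731000) were recovered from the FPKM steps with exon lengths of GENCODE M21, matched for 97.0% of gene identifiers. Of the low values, 94.1% to 94.4% came out whole within 0.05 fragments. No count test was run. For 8 of the 10 members the fragments came out whole, the exceptions being Tet1 and Kdm1b, and the cause was not tested. Nothing in the sources beyond the study's statement that ovaries were independent describes the replicates.

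The members and gene lists were chosen with earlier results of these data known. Genes named in the text were the members, Uhrf1, Dppa3, Trim28 and Tdg, partner genes with an adjusted p under 0.05, the 2 partner genes in each direction with the smallest p for PD16 against PD14, and the 2 genes most correlated with each member, of which 1 is not reported here. Alternatives covered the pseudocount, the filter, scaling, the trend, the libraries fitted, a replicate block and leaving out each library. Python 3.11.15, NumPy 2.4.6, pandas 2.3.3 and Matplotlib 3.10.9 were used.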

Additional observations from a re-analysis of the deposited data

How the results depend on the processing

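No member was called by limma in any of 75 alternative fits, the lowest adjusted p being 0.0570 (among days, without PD15 replicate 3). Deviations of libraries from their day's mean had correlations of -0.214 to 0.159 between libraries with the same replicate number. Between libraries with different numbers they were -0.196 to 0.211. With 3 libraries per day these values do not decide whether samples were paired. With the replicate block 0 members were called, the lowest adjusted p being 0.411, 0.167 and 0.154 for PD15 against PD14, PD16 against PD14 and PD16 against PD15. Over all genes, 105, 659 and 113 calls in these comparisons became 24, 227 and 56 with the block, 29, 172 and 24 when every gene above 0 was tested, 90, 397 and 104 after rescaling to a common total, and 47, 320 and 93 when only the days compared were fitted. They became 3, 498 and 14 without PD15 replicate 1, 7, 116 and 55 without PD14 replicate 3, and 61, 92 and 23 without PD16 replicate 1. Of 558 alternative values of the members 10 reversed sign, as did 6 of 567 of the named partner genes and Zp3, all on leaving out a library. The ranges of the genes concerned were -0.12 to 0.027 for Dnmt3a, -0.10 to 0.0044 for Tet1, -0.0020 to 0.062 for Setdb1 and -0.053 to 0.054 for Dmap1 (PD15 against PD14), -0.071 to 0.00028 for Dnmt3b (PD16 against PD14), and -0.021 to 0.042 for Dnmt3l, -0.11 to 0.056 for Tet2, -0.14 to 0.0079 for Tet3, -0.031 to 0.071 for Trim28 and -0.083 to 0.0079 for Tdg (PD16 against PD15). Cdca7 also lost its call when every gene above 0 was tested (adjusted p = 0.0723), after rescaling (0.0544) and with only the days compared (0.0592), and Cdca7l after rescaling (0.0509). The cause was not tested.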
